A study of Mus musculus with 8 samples.

Results

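The mouse Thy1 gene (chr9:44043384-44048579, GRCm38) and 50 kb on either side of it form a window of 105196 bp, and this window held 22 of the 189914 merged regions of open chromatin in the series. Members were every peak of the 8 peak lists that touched the window, 142 peaks in all, and peaks sharing at least 1 bp were merged into an element. Elements were numbered E1 to E22 along the chromosome, with 9 upstream of Thy1, 1 (E10) over its start and 12 downstream. Members were taken by position.

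Chromatin accessibility was measured by ATAC-seq, in which the transposase Tn5 cuts open DNA and adds sequencing adapters. The GFP group (3 libraries) received AAV2-GFP in the vitreous body of the eye, the Ezh2 group (3 libraries) AAV2-Ezh2, and the Ezh2-Y726D group (2 libraries) AAV2-Ezh2-Y726D, a form of the histone H3K27 methyltransferase Ezh2 without catalytic activity. All animals were adult C57BL/6J mice, all had the optic nerve crushed 2 weeks after the injection, and retinal cells were taken 3 days after the crush, and no uninjured or uninjected retina was among the samples analysed here. Each library came from 50000 live cells sorted on surface CD90.2, which is the Thy1 protein itself. Cells were therefore kept for carrying Thy1 whatever their type, infected or not. The labels give neither batch nor animal, so p-values measure the spread between these libraries, which may be technical.

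Thy1 is a small glycoprotein held on the outer membrane by a glycosylphosphatidylinositol (GPI) anchor. In the retina it is a classical surface marker of retinal ganglion cells (RGCs), and in the mouse it is also abundant on T cells. It binds integrins and syndecan 4 on neighbouring cells, signals through kinases of the Src family, and restrains neurite outgrowth in culture.

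Sequences are shown for RefSeq promoters (300 bases around a start site, GRCm38.p6) that lay partly inside elements whose presence differed between groups. A start inside Usp2, within an element found in every list, is shown for comparison. Thy1 was not among the promoters used here. Capitals mark matches on either strand. The motifs searched were the GC box spelled GGGCGG, the CCAAT box, an E-box spelled CAGCTG, the ETS core spelled GGAAG and the GATA core spelled GATAA, none of which overlapped another in these sequences. The TATA box spelled TATAAA, the RUNX core spelled TGTGGT and the AP-1 site spelled TGANTCA were searched as well and had no match here. The inner start of the non-coding RNA Gm39323 (chr9:44034610-44034909, minus strand) had 231 bases inside E8, the inner start of the non-coding RNA Gm39325 (chr9:44072119-44072418, minus strand) had 234 bases inside E13, and the inner start of Usp2 (chr9:44084670-44084969, plus strand) lay wholly inside E18.
Gm39323 inner start: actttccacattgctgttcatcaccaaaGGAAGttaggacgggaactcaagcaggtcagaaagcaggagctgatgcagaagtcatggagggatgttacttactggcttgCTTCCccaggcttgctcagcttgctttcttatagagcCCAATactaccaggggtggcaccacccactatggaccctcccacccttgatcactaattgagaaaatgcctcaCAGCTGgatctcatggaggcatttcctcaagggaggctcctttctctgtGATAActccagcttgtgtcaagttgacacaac
Gm39325 inner start: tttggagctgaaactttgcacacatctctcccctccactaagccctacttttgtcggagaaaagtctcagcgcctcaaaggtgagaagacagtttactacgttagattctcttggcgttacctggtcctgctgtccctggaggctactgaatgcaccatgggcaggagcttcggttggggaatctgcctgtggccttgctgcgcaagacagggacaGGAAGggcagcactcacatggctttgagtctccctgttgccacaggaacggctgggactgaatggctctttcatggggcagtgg
Usp2 inner start: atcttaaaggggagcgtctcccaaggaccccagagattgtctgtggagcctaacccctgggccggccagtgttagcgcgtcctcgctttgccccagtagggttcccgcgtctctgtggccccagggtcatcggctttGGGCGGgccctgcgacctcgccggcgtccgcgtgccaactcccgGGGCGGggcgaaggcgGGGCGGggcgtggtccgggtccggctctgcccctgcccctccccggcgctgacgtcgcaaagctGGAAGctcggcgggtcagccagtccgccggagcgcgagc
The Usp2 sequence was rich in G and C, at 71.7% against a median of 52.7% over 32817 RefSeq promoters, and held 3 GC boxes, a motif found in 35.6% of all promoters. The starts inside E8 and E13 had 49.7% and 54.3% G and C and no GC box. The E8 start held 1 CCAAT box (37.4% of all promoters), 1 E-box (16.3%), 2 ETS cores (71.4%) and 1 GATA core (25.4%), whereas the E13 start held 1 ETS core. The first ETS core printed for the E8 start lay in the part of the stretch outside E8.

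Elements were spread unevenly around Thy1. The gap between Thy1 and the farthest of the 9 upstream elements, E1, was 37764 bp, and 8 of the 9 lay in Gm39323 (chr9:44010450-44042184). Downstream, 10 elements overlapped Usp2 (chr9:44067021-44095627), which encodes a deubiquitinating enzyme, and 7 of these also overlapped Gm39325 (chr9:44066325-44084990). E22 lay in the non-coding RNA Gm38444 (chr9:44095812-44099113), and E1 and E11, each found in a single list, overlapped no gene. Beyond the 655 bp covered by E10, the other 4541 bp of Thy1 held no peak in any list, and the gap from E10 to the next element was 8877 bp. The outer start of Gm39323 (chr9:44042135-44042434, minus strand) lay between E9 and E10 and held no peak in any list.

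**Figure D1:**
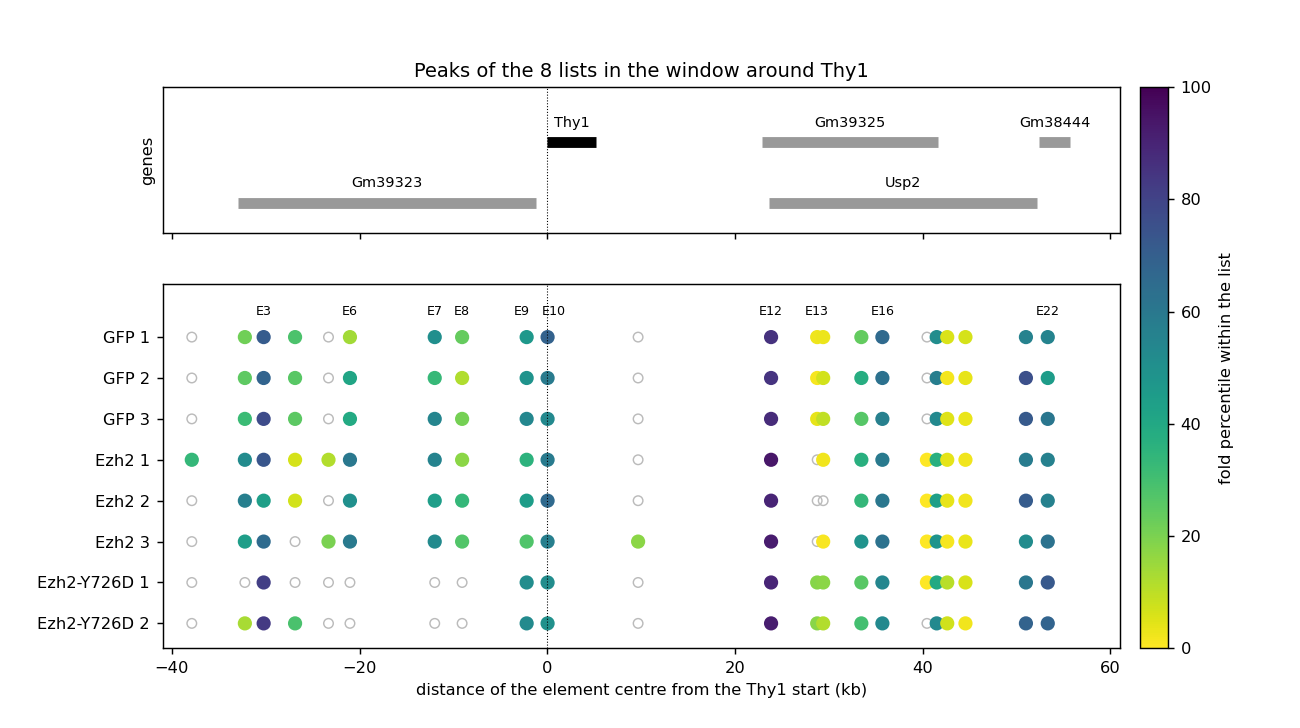
Each row is a peak list and each column an element, placed by the distance of its centre from the Thy1 start in kb. Filled circles are peaks coloured by their fold percentile within the list, open circles mark elements without a peak, and bars above show the genes. Both Ezh2-Y726D rows are open at E6, E7 and E8, and all 8 rows are filled at E10.

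A peak was present in 18 of the 22 elements in each of the 3 GFP lists. The Ezh2 lists had a peak in 20, 17 and 19 elements and the Ezh2-Y726D lists in 14 and 15, so both Ezh2-Y726D lists lay below all 6 others. Mean numbers were 18.0 ± 0 (SD, n = 3) in GFP, 18.7 ± 1.53 (SD, n = 3) in Ezh2 and 14.5 ± 0.707 (SD, n = 2) in Ezh2-Y726D. The exact two-sided permutation p was 0.1 for Ezh2-Y726D against GFP, the smallest that 2 against 3 libraries allow, 0.2 for Ezh2 against Ezh2-Y726D and 0.7 for Ezh2 against GFP. Over the 6 tests of the window the adjusted p was 0.36, 0.36 and 0.7. Peaks covered 10340, 10033 and 12220 bp of the window in GFP, 12211, 10951 and 13083 bp in Ezh2, and 9722 and 9556 bp in Ezh2-Y726D. Both Ezh2-Y726D lists again lay below all 6 others in covered length, with an exact permutation p of 0.3 for each group against GFP and 0.2 between the Ezh2 forms, all with an adjusted p of 0.36. With 2 libraries in a group, these p-values do not show that covered length was alike. In a window of 100 kb on either side, with 42 elements, the Ezh2-Y726D lists had 30 and 32 elements with a peak, within the GFP range of 30 to 34.

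The lower number lay on the upstream side. Of the 9 upstream elements, each GFP list had a peak in 7, the Ezh2 lists in 9, 7 and 7, and the Ezh2-Y726D lists in 2 and 4. Of the 12 downstream elements, each GFP list had a peak in 10, the Ezh2 lists in 10, 9 and 11, and the Ezh2-Y726D lists in 11 and 10, which overlap. The difference between the sides was not tested.

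E10 (chr9:44042807-44044038), the element over the Thy1 start, had a peak in every list, with summits between 23 bp upstream and 19 bp downstream of the annotated start. Its fold, the pileup at the summit over the local background of the same library, was 6.04, 5.67 and 4.89 in GFP, 5.45, 5.78 and 5.01 in Ezh2, beside 5.26 and 5.00 in Ezh2-Y726D. Since folds are not comparable between libraries, each was also expressed as a percentile, the rank of its fold among all peaks of the same list from lowest to highest. E10 stood at percentile 69.0, 58.9 and 53.1 in GFP, 58.8, 65.9 and 57.2 in Ezh2, with 51.6 and 49.6 in Ezh2-Y726D. Both Ezh2-Y726D libraries were lowest, just under GFP replicate 3.

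Group differences at E10 were tested with limma on normal scores of the fold ranks over the 69493 regions with a peak in all 8 lists. The Ezh2 minus GFP difference was -0.02 (SE 0.20, 95% interval -0.46 to 0.43, adjusted p = 0.979). Ezh2-Y726D minus GFP was -0.33 (SE 0.22, 95% interval -0.83 to 0.17, adjusted p = 0.415), and Ezh2 minus Ezh2-Y726D was 0.31 (SE 0.22, 95% interval -0.19 to 0.81, adjusted p = 0.397). Thus no difference at the Thy1 start passed the test. The intervals still allow a difference of up to 0.83. Within their lists the E10 peaks ranked higher by statistical strength than by fold, at percentile 83.6 to 88.0 of -log10 q in GFP, 87.5 to 89.3 in Ezh2 and 85.3 to 86.4 in Ezh2-Y726D.

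**Figure D2:**
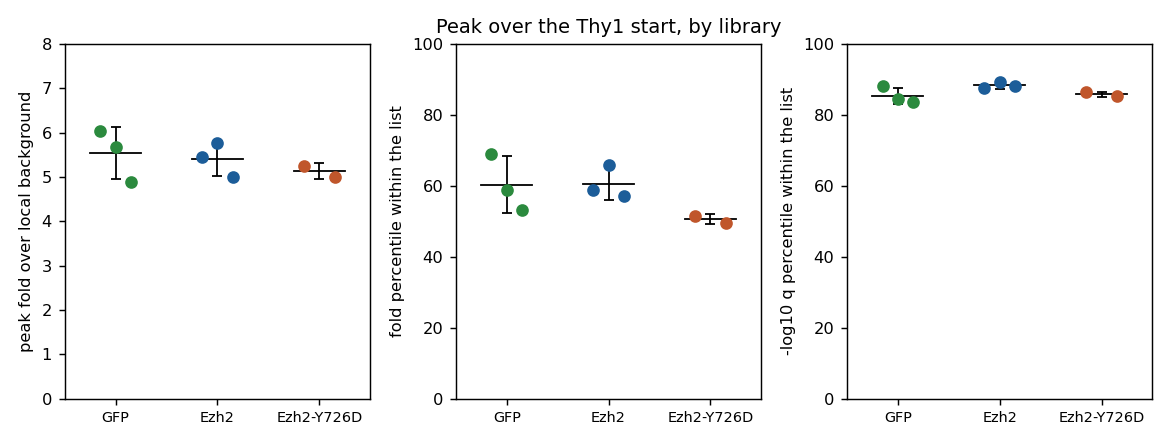
Points are libraries by group for E10, the peak over the Thy1 start, as fold over local background, fold percentile and -log10 q percentile within the list (y axes), with lines at the group mean and bars of 1 SD. Fold percentiles ran from 49.6 to 69.0 and the ranges of GFP and Ezh2 overlapped.

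Among protein-coding genes with an open end, the Thy1 start ranked low by fold. A gene-end peak, within 1 kb of either end of a gene, was found for 14793 to 15339 of 21887 protein-coding genes, depending on the list. Among the genes with such a peak, the Thy1 fold stood at percentile 13.3 to 24.2 in GFP, 15.8 to 21.1 in Ezh2 and 12.7 to 13.8 in Ezh2-Y726D. The GFP range held all but the lower of the Ezh2-Y726D values.

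E6 (chr9:44021838-44022885), E7 (chr9:44030741-44032049) and E8 (chr9:44033789-44034840) all lay in Gm39323, upstream of Thy1. All 6 lists of the GFP and Ezh2 groups held these 3 peaks, and both Ezh2-Y726D lists lacked them. This pattern was met by 3 of the 22 elements and by 3.61% of all merged regions. By the presence rule (a peak in every library of a group and in none of the other), 3 elements were lost and 0 gained in Ezh2-Y726D against GFP, where 4.72% of all regions were lost and 4.77% gained. In Ezh2 against Ezh2-Y726D, the same 3 elements were gained (8.96% of all regions) and 1, E13, was lost (6.14%). Presence was not tested.

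At E6 the fold was 3.30, 4.61 and 4.22 in GFP and 5.61, 4.80 and 5.05 in Ezh2, with percentiles of 13.8, 41.4 and 39.4 in GFP and 60.1, 50.0 and 59.1 in Ezh2. By percentile, all 3 Ezh2 libraries lay above all 3 GFP libraries. In a limma fit extended to regions with a peak in at least 5 lists, where libraries without a peak were left out, Ezh2 minus GFP at E6 was 0.67 (SE 0.25, adjusted p = 0.187). At E7 the fold was 4.75, 4.29 and 5.06 in GFP and 5.25, 4.45 and 4.68 in Ezh2. At E8, whose merged extent reached the inner start of Gm39323 printed above, it was 3.67, 3.39 and 3.51 in GFP and 3.50, 3.97 and 3.60 in Ezh2. The summits behind these E8 folds lay between chr9:44034103 and chr9:44034229, outside the printed stretch. These folds are therefore not values of that start. Of the peaks behind them, only those of Ezh2 replicates 2 and 3 reached into the printed stretch. GFP replicate 2 and Ezh2 replicate 1, each with 1 peak in E8, had no peak in that stretch. In the same extended fit Ezh2 minus GFP was 0.06 (SE 0.20, adjusted p = 0.907) at E7 and 0.18 (SE 0.21, adjusted p = 0.696) at E8.

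These 3 peaks were not strong in the lists that held them. Mean fold percentiles were 31.5, 46.0 and 18.7 in GFP for E6, E7 and E8. Over all 6855 regions with the pattern, the median of the mean percentile was 49.4, with quartiles at 35.5 and 63.0. In GFP the -log10 q of E6 was 3.30, 6.35 and 6.59 and that of E8 was 6.04, 3.66 and 6.64, while the lowest value kept in any list was 1.31 to 1.38. A missing peak means that the threshold was not reached, not that the site was closed. With peaks kept only at a -log10 q of at least 5, E7 alone was still lost in Ezh2-Y726D against GFP, and with a peak required to cover 0.5 of the element none was. Without Ezh2-Y726D replicate 2, 5 elements were lost and 1 was gained, since E2 and E4 joined the first and E17 the second. The relative background of the libraries, an index of depth, was 3.25, 2.69 and 3.74 in GFP, 3.09, 3.33 and 3.59 in Ezh2, beside 2.39 and 3.12 in Ezh2-Y726D. Ezh2-Y726D replicate 1 had the lowest index and GFP replicate 2 the next, and the part of depth in these absences was not tested.

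**Figure D3:**
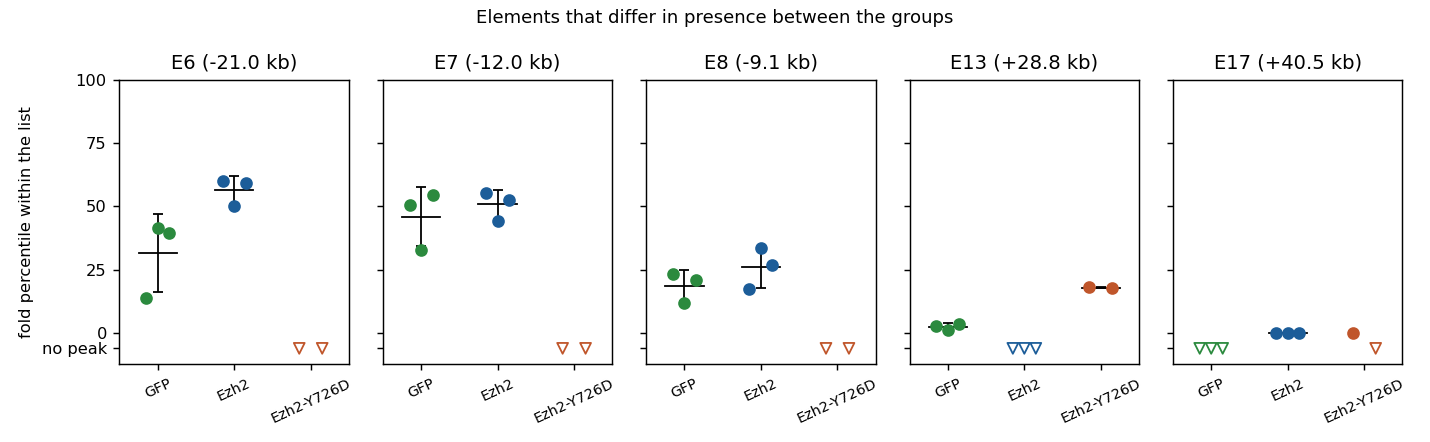
Points are libraries by group for E6, E7, E8, E13 and E17, with the fold percentile within the list on the y axis, and open triangles mark libraries without a peak. Lines and bars give the mean and 1 SD where every library of the group had a peak. Ezh2-Y726D has no peak at E6, E7 and E8, Ezh2 none at E13 and GFP none at E17.

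Marker genes of T cells, which carry Thy1 in the mouse, and of microglia and macrophages, which are not known for carrying it, had fewer gene-end peaks in Ezh2-Y726D. Of 20 T cell markers, a gene-end peak was found for 18, 18 and 20 in GFP, 20 in each Ezh2 list, and 10 and 8 in Ezh2-Y726D. The summed fold of the list was 97.0 to 112 in GFP, 106 to 122 in Ezh2 and 44.7 to 53.6 in Ezh2-Y726D, a description only, since it follows the number of genes with a peak and folds are scaled within each library. The pattern of E6 to E8 was shown by 8 of these genes, namely Cd3g, Cd8a, Cd8b1, Cd2, Cd28, Zap70, Lat and Il7r, against 1.19% of 21887 protein-coding genes. Among the defining T cell markers, Cd3g, Cd8a, Cd8b1, Cd2 and Lck had no peak in either Ezh2-Y726D list, while Cd3e, Cd3d and Cd4 had a peak in both. For Cd2 this rests on the limit of 1 kb, since a merged region reaching its low-coordinate end (chr3:101273991-101275337) had a peak in all 8 lists, with an Ezh2-Y726D minus GFP difference of 0.22 (SE 0.27, limma adjusted p = 0.67). The GFP lists held gene-end peaks for 14, 12 and 17 of 20 microglia and macrophage markers, the Ezh2 lists for 17, 15 and 16, and each Ezh2-Y726D list for 5. Their summed fold was 63.9 to 82.9 in GFP, 81.9 to 93.9 in Ezh2 and 38.9 to 41.1 in Ezh2-Y726D. The pattern of E6 to E8 was shown by 6 of these 20 genes, Cx3cr1 among them. Of the defining markers, Cx3cr1 had a peak in 3 GFP and 3 Ezh2 lists, Itgam in 2 and 3, C1qa in 1 and 2 and Csf1r in 0 and 3, and no Ezh2-Y726D list had any of these. P2ry12 and C1qc, named after their values were seen, went the other way. P2ry12 had a peak in 3 GFP lists, 0 Ezh2 lists and both Ezh2-Y726D lists. C1qc had a peak within 1 kb of an end in 2 GFP lists, 3 Ezh2 lists and both Ezh2-Y726D lists. The merged region reaching an end of C1qc had a peak in all 8 lists. It was lower in Ezh2 than in Ezh2-Y726D (difference -1.03, SE 0.27, limma adjusted p = 0.0344). With gene ends widened to 3 kb, the mean T cell difference between Ezh2-Y726D and GFP was -5.00 genes in place of -9.67. In limma, 0 of 9 T cell and 0 of 3 microglial genes tested were called in Ezh2-Y726D against GFP (1.88% of gene-end regions). Their median differences were -0.16 and 0.26, beside -0.10 over all gene-end regions. Genes without a gene-end region in all 8 lists were not tested. Icos was the 1 T cell gene called in any comparison. It was higher in Ezh2 than in GFP (difference 0.97, SE 0.20, limma adjusted p = 0.0309) and than in Ezh2-Y726D (difference 0.82).

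RGC markers were found at like numbers in all groups. The GFP lists held peaks for 18, 19 and 19 of the 20 genes, the Ezh2 lists for 19, 19 and 20, and the Ezh2-Y726D lists for 20 and 19. Rbpms, Pou4f1, Nefl and Slc17a6 had a peak in all 8 lists, whereas Sncg had a peak in only 1 Ezh2 and 1 Ezh2-Y726D list. The strongest Pou4f1 gene-end region, at an RGC transcription factor, was lower in Ezh2-Y726D than in GFP (difference -0.85, SE 0.19, limma adjusted p = 0.0267), and the other RGC marker called in that comparison, the nicotinic receptor gene Chrnb3, was higher (difference 0.90, SE 0.20, adjusted p = 0.0264). These were 2 of 18 RGC genes tested, where 1.88% of all gene-end regions were called. Pou4f1 was also the 1 RGC gene of 18 called in Ezh2 against Ezh2-Y726D, where 5.13% of gene-end regions were called, and was higher in Ezh2 (difference 1.29, SE 0.19, adjusted p = 0.00305). The group and the T cell and microglial marker content of the libraries cannot be told apart in this design, and the part of either in E6, E7 and E8 was not tested. In pooled cells, fewer cells with a site open and less opening per cell cannot be told apart either.

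**Figure D4:**
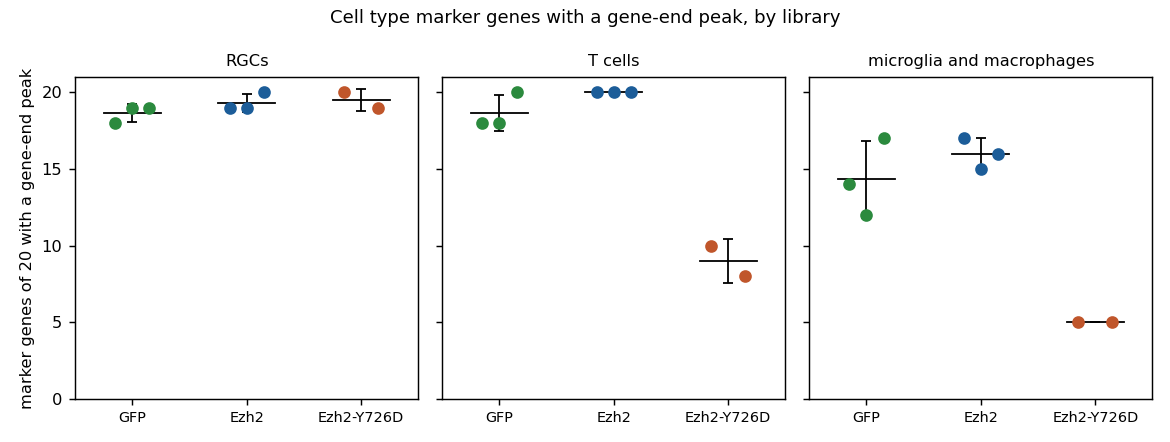
Points are libraries by group, the y axis counts marker genes of 20 with a peak within 1 kb of a gene end, and lines and bars give the mean and 1 SD. RGC counts run from 18 to 20, while T cell and microglial counts in both Ezh2-Y726D libraries lie below all GFP and Ezh2 libraries.

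The element nearest to the Thy1 start besides E10, E9 (chr9:44040831-44041552), lay 1832 bp upstream of that start in Gm39323 and had a peak in all 8 lists. Its fold percentile was 46.6, 48.6 and 53.5 in GFP, 35.9, 44.8 and 27.7 in Ezh2, with 51.4 and 52.7 in Ezh2-Y726D. All 3 Ezh2 libraries were below all others. The Ezh2 minus GFP difference of normal scores was -0.40 (SE 0.17, limma adjusted p = 0.233) and the Ezh2 minus Ezh2-Y726D difference -0.44 (SE 0.20, adjusted p = 0.162), neither past the threshold.

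E3 (chr9:44012496-44013831), 29553 bp upstream, had the highest mean fold percentile of the upstream elements in each group. Its fold percentile was 71.2, 68.1 and 77.0 in GFP, 73.2, 44.0 and 65.4 in Ezh2, beside 81.5 and 83.2 in Ezh2-Y726D. The Ezh2-Y726D libraries were thus highest here, in contrast to E6, E7 and E8. Ezh2 minus Ezh2-Y726D was -0.77 (SE 0.26, 95% interval -1.35 to -0.19, limma adjusted p = 0.0768), the lowest adjusted p among the elements found in all lists. It was 0.0337 without Ezh2 replicate 1, and across all alternatives it ran from 0.0337 to 0.249.

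The remaining upstream elements were weaker or found in fewer lists. E2 (chr9:44010912-44011412) had a peak in all lists but Ezh2-Y726D replicate 1, with percentiles of 21.7 to 32.0 in GFP, 44.3 to 57.1 in Ezh2 and 13.2 in Ezh2-Y726D replicate 2. In the fit on regions in at least 5 lists, Ezh2 minus GFP was 0.65 (SE 0.18, adjusted p = 0.0922). Ezh2-Y726D had 1 library with a value here. E4 had a peak in all GFP lists, 2 Ezh2 lists and 1 Ezh2-Y726D list, E5 in 2 Ezh2 lists, and E1 in 1 Ezh2 list. At E4 the same fit went the other way, with an Ezh2 minus GFP difference of -0.90 (SE 0.19, limma adjusted p = 0.053). That value rests on 2 Ezh2 libraries. With peaks kept only at a -log10 q of at least 5, E4 was in 3 GFP lists and 0 Ezh2 lists.

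The strongest element of the window was E12 (chr9:44066679-44067800), over the low-coordinate end of Usp2 and inside Gm39325. Its fold was 8.04, 8.56 and 8.53 in GFP, 10.5, 9.02 and 9.35 in Ezh2, with 9.73 and 10.2 in Ezh2-Y726D. The percentiles were 85.7, 85.0 and 87.7 in GFP, 93.9, 89.8 and 92.5 in Ezh2, beside 89.7 and 92.2 in Ezh2-Y726D, so GFP was below both other groups. Ezh2 minus GFP was 0.36 (SE 0.16, limma adjusted p = 0.234) and Ezh2-Y726D minus GFP 0.26 (SE 0.18, adjusted p = 0.409). E18 (chr9:44084381-44085398), which holds the Usp2 start printed above, stood at percentile 51.2, 57.5 and 52.9 in GFP, 37.0, 44.0 and 48.4 in Ezh2, with 39.7 and 52.9 in Ezh2-Y726D, and no comparison passed the test.

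E13 (chr9:44071955-44072352), over the inner start of Gm39325 printed above and inside Usp2, was a peak of all 5 GFP and Ezh2-Y726D lists and of none of the Ezh2 lists. This pattern was met by 1.12% of all regions. Its fold was 2.63, 2.52 and 2.65 in GFP and 3.61 and 3.54 in Ezh2-Y726D, low within those lists (percentile 1.24 to 3.77 in GFP and 18.0 in both Ezh2-Y726D lists). The -log10 q was 6.69 to 10.5 in GFP and 12.5 to 15.7 in Ezh2-Y726D, above the threshold of the lists. In the fit on regions in at least 5 lists, Ezh2-Y726D minus GFP was 0.96 (SE 0.21, adjusted p = 0.0487), with all Ezh2 libraries left out for lack of a peak. That comparison called 5185 of 97985 regions.

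E17 (chr9:44083601-44084102), also inside Usp2, had a peak in all 3 Ezh2 lists, in Ezh2-Y726D replicate 1 and in no GFP list. Its folds of 1.78 to 1.99 in Ezh2 stood at or under percentile 0.244 of those lists, and only 1 Ezh2 library kept the peak at a -log10 q of at least 5. No element was a peak of all Ezh2 lists alone, as 1.98% of all regions were. By presence, Ezh2 against GFP gained 1 of the 22 elements (E17) and lost 1 (E13), where 2.72% of all regions were gained and 1.68% lost. E13 was lost under every alternative tried, whereas E17 was not gained at a -log10 q of at least 5 or with lists cut to equal length. E14, 111 bp from E13, had a peak in all lists but Ezh2 replicate 2. The GFP percentiles were 3.03, 6.66 and 9.40, those of Ezh2 replicates 1 and 3 were 1.96 and 0.807, and the Ezh2-Y726D percentiles were 17.5 and 11.5, with no overlap between the groups. Ezh2 minus Ezh2-Y726D at E14 was -1.09 (SE 0.25, adjusted p = 0.0296) in the fit on regions in at least 5 lists, with Ezh2 replicate 2 left out. That comparison called 10219 of 96809 regions.

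In all, 11 of the 22 elements had a peak in every list and entered the main rank comparison, and none was called in any comparison. Over all 69493 regions limma called 4.44% in Ezh2 against GFP, 8.21% in Ezh2-Y726D against GFP and 14.0% in Ezh2 against Ezh2-Y726D. At an unadjusted p under 0.05 there were 2, 1 and 3 of the 11 elements in those comparisons. Groups did not overlap at 3, 4 and 7 of the 11, against 24.0%, 41.5% and 47.5% of all regions. The median difference over the 11 elements was -0.13, -0.04 and -0.11, beside 0.01, -0.01 and 0.02 over all regions. An element that was weak in a group could drop out of this comparison, so the 11 are not the whole window.

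**Figure D5:**
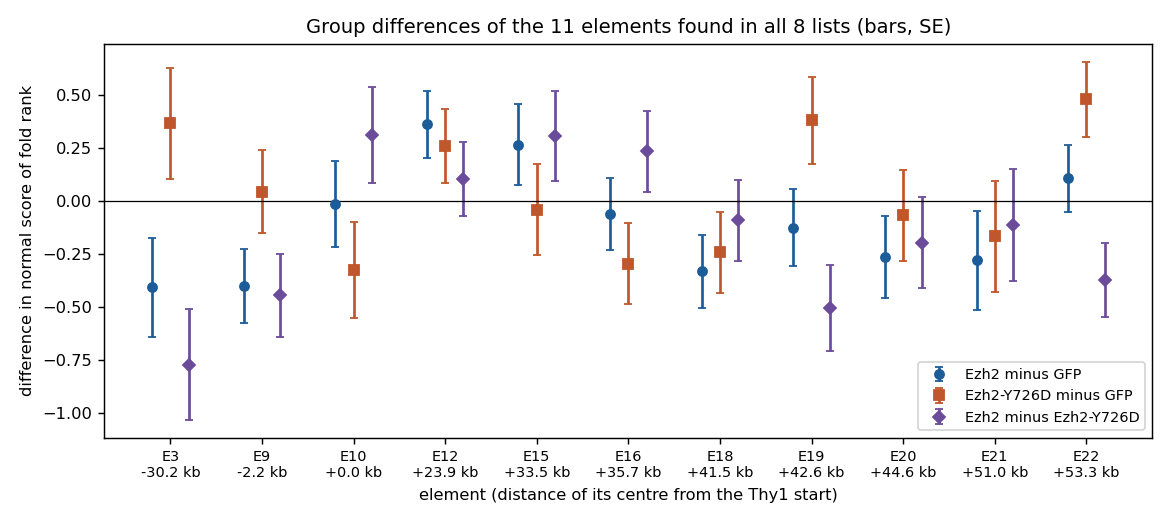
Points are group differences in the normal score of the fold rank (y axis) for the 11 elements with a peak in all 8 lists, ordered along the chromosome with the distance of the centre from the Thy1 start in kb, and bars are 1 SE. The lowest value is -0.77 at E3 for Ezh2 minus Ezh2-Y726D, and no difference passed the adjusted threshold.

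Of the other elements found in all lists, E22 (chr9:44096357-44097095) stood at percentile 55.3, 45.0 and 60.8 in GFP, 56.5, 56.4 and 62.2 in Ezh2, beside 72.3 and 68.4 in Ezh2-Y726D, with both Ezh2-Y726D libraries highest. Ezh2-Y726D minus GFP was 0.48 (SE 0.18, limma adjusted p = 0.127). E16 ran from percentile 52.9 to 65.9 over the 8 lists, E21 from 51.7 to 75.5, and E15 from 24.0 to 48.6, whereas E19 and E20 were at or under 10.8. Their group differences lay between -0.50 and 0.38 and none passed the test.

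Genes that work with the Thy1 protein were examined at their own ends. Of 10 genes for its binding partners on other cells, a gene-end peak was found for 9, 7 and 9 in GFP, 9 in each Ezh2 list and 6 in each Ezh2-Y726D list. The 6 with a peak in all 8 lists included Itgb3, a partner chain on astrocytes, Itgb1 and Sdc4, which encodes syndecan 4. Itgb2, the shared chain of leukocyte integrins, was marked by a peak at percentile 55.7 to 80.1 in all 6 GFP and Ezh2 lists, and no Ezh2-Y726D list had one within 1 kb of an end of the gene. A merged region (chr10:77566513-77567051) reached to within 1 kb of the high-coordinate end of Itgb2 and had a peak in all 8 lists. Its peaks in the Ezh2-Y726D lists lay beyond 1 kb. This region entered the fit, with an Ezh2-Y726D minus GFP difference of -0.06 (SE 0.22, limma adjusted p = 0.899). Itgam and Itgax, partner chains of Itgb2 on myeloid cells, had a peak in 2 GFP lists, all Ezh2 lists and no Ezh2-Y726D list. Itgam is a microglial marker as well, and the part of myeloid cells in these 3 genes was not tested. Itgav had no gene-end peak in any list.

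Of 11 genes that carry the Thy1 signal inside the cell, 10 or 11 had a gene-end peak in each GFP and Ezh2 list and 10 in each Ezh2-Y726D list. The only gene without a peak in Ezh2-Y726D was Lck, the Src family kinase of T cells, which had a peak in 1 GFP list and all Ezh2 lists. All 10 genes for making the GPI anchor, and all 10 for neuronal adhesion proteins with such an anchor, had a peak in every list. With limma, 0 genes of any of the 4 groups were called in any comparison, of 7, 9, 10 and 10 tested. Over all 12477 gene-end regions tested, 0.801% were called in Ezh2 against GFP, 1.88% in Ezh2-Y726D against GFP and 5.13% in Ezh2 against Ezh2-Y726D. In Ezh2-Y726D against GFP the median difference was 0.10 for the binding partners, -0.18 for signalling, -0.15 for anchor synthesis and -0.18 for the anchored adhesion proteins, beside -0.10 over all gene-end regions.

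The gene-end regions whose fold ranks were most like those of the Thy1 start over the 8 lists belonged to Crocc (Pearson r = 0.978), Phf1 (0.975), 1110059E24Rik and Abhd17b (which share a region, 0.971), Pik3r2 (0.970) and Cadm3 (0.969). These are descriptions over 8 libraries, which share their depth and composition across all regions. Of 12476 regions compared, 141 or 1.13% had an r above 0.9, and the median r was 0.32.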

How the data were processed

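Per the labels, ATAC-seq libraries of sorted retinal cells were made in 3 GFP, 3 Ezh2 and 2 Ezh2-Y726D samples. The submitters' processing notes name cutadapt, Bowtie2, SAMtools, Picard, MACS2 and deepTools and the build GRCm38, with no versions. The authors called peaks per sample and deposited 8 lists of 112939 to 135895 peaks. Their deposited fold is the ratio of summit pileup to local background, and the deposited -log10 p-value, -log10 q-value and score come from the same peak calling. These were used to rank or filter peaks within a list, and folds are also given as descriptions. Read numbers are not in the lists, so depth is unknown apart from a background index read from steps of 1 read between the commonest folds.

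Peaks sharing at least 1 bp were merged over all lists. Fold ranks of regions in all 8 lists were turned into normal scores and compared with limma 3.58.1 (R 4.3.3, all groups in 1 fit, Benjamini-Hochberg over 69493 regions, called under 0.05), tested on simulated data first. Counts per library were compared by exact two-sided permutation. Gene positions and promoters were RefSeq GRCm38.p6. Strand and exons were not in the gene table, and the Thy1 start was taken as its low-coordinate end. All 193 list genes matched. Text names Thy1, genes and elements of the window, called genes of the Thy1 lists, the 5 most alike gene-end regions and defining markers. Others follow counts of 5 or fewer. The elements, lists and motifs were chosen with earlier results of these data known.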

Additional observations from a re-analysis of the deposited data

How the results depend on the processing

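Elements kept their merged coordinates under all alternatives. With a -log10 q of at least 5, the Ezh2 minus GFP difference in elements with a peak was -1.33 in place of 0.67, gained and lost elements in Ezh2 against GFP numbered 0 and 3 (each 1 before), lost elements numbered 1 in Ezh2-Y726D against GFP and 2 in Ezh2 against Ezh2-Y726D, and RGC markers differed by 1.67 (Ezh2 minus GFP) and 1.00 (Ezh2 minus Ezh2-Y726D). With lists of equal length these values were -0.67 for elements, 0 gained in Ezh2 against GFP, and 0.83 for RGC markers between the Ezh2 forms. With a peak covering 0.5 of the element, 0 elements were lost in Ezh2-Y726D against GFP and 2 in Ezh2 against Ezh2-Y726D. In a window of 100 kb on either side, covered length was 790 bp higher in Ezh2-Y726D than in GFP, against -1225 bp in 50 kb. With gene ends of 3 kb, T cell markers differed by 0, -5.00 and 5.00 and microglial markers by 7.83 (Ezh2 minus Ezh2-Y726D).

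Ranked by -log10 p, Ezh2 minus GFP at the Thy1 start was 0.13 (adjusted p = 0.612, and 0.612 to 0.995 over all alternatives) in place of -0.02, E15 was -0.027, and E18, E20 and E21 were 0.0099, 0.16 and 0.058 for Ezh2 minus Ezh2-Y726D. Regions in at least 5 lists gave 1 called element (E13) of 15 in Ezh2-Y726D against GFP, where 5185 of 97985 regions were called. In Ezh2 against Ezh2-Y726D they gave 2 of 14 (E14 and, with a single Ezh2-Y726D library assumed to vary like the others, E2). There 10219 of 96809 regions were called. In the same fit E9 was -0.062 for Ezh2-Y726D minus GFP. Of the single-element values under alternatives, 387 kept direction and side of the threshold, 19 reversed and 1 crossed the threshold. The causes were not tested.

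Correlations of deviations between same-numbered lists were all under 0.1. They ran from -0.015 to 0.048 by title number and from 0.0018 to 0.048 by the number in the peak names. With so few libraries per group, these values do not settle whether replicate numbers pair the samples. With a replicate block by title number the Thy1 start differences were -0.02, -0.46 and 0.44 (limma adjusted p = 0.976, 0.216 and 0.2), and by the number in the peak names -0.02, -0.25 and 0.23. The block called 0 elements in any comparison, and only E9 changed sign (-0.035, Ezh2-Y726D minus GFP, title number).

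Leaving out a replicate gave, for Ezh2 minus GFP, Ezh2-Y726D minus GFP and Ezh2 minus Ezh2-Y726D in turn, 0 to 1.5, -4.0 to -3.0 and 3.5 to 5.0 elements with a peak. Covered length differed by 717 to 1895, -1641 to -548 and 1942 to 3008 bp. The Thy1 start differed by -0.20 to 0.14, -0.51 to -0.18 and 0.23 to 0.40. Gained elements numbered 1 to 2, 0 to 1 and 3 to 4, and lost elements 1 to 1, 3 to 5 and 1 to 1. Called elements numbered 0 to 0, 0 to 0 and 0 to 1, the last being E3 without Ezh2 replicate 1, E14 without Ezh2 replicate 2 and E2 without Ezh2-Y726D replicate 1. RGC markers differed by 0.33 to 0.83, 0.33 to 1.33 and -0.67 to 0.33, T cell markers by 1.00 to 2.00, -10.7 to -8.67 and 10.0 to 12, and microglial markers by 0.50 to 3.00, -10.5 to -8.00 and 10.5 to 11.5. Elements that changed sign ranged from -0.20 to 0.021 (E16) and -0.25 to 0.011 (E19) for Ezh2 minus GFP, from -0.16 to 0.080 (E15) and -0.29 to 0.22 (E20) for Ezh2-Y726D minus GFP, and from -0.29 to 0.029 (E18), -0.49 to 0.015 (E20) and -0.29 to 0.064 (E21) for Ezh2 minus Ezh2-Y726D. A group left with 1 library was assumed to vary like the others.

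The lists limit these comparisons: an element without a peak has no value, depth is unknown, and 2 against 3 libraries cannot pass 0.05 in an exact test.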

Other observations

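Of 20 rod markers, 18 had a gene-end peak in each GFP list, 16 to 17 in Ezh2 and 15 to 18 in Ezh2-Y726D. Of 20 Muller glia markers, 17 to 18 had a peak in every group. Amacrine cell markers numbered 17 to 19 of 20 in GFP, 17 to 18 in Ezh2 and 18 in both Ezh2-Y726D lists, and bipolar cell markers 19 to 20 in GFP and Ezh2 and 17 to 18 in Ezh2-Y726D. Of 15 endothelial cell and pericyte markers, 8 to 10 had a peak in GFP, 9 to 11 in Ezh2 and 10 in both Ezh2-Y726D lists. Of these 5 lists, only the bipolar cell list had counts that did not overlap between GFP and Ezh2-Y726D. Counts over all 21887 protein-coding genes did not overlap either, at 14933 to 15247 in GFP and 14793 and 14887 in Ezh2-Y726D. Rod counts did not overlap between GFP and Ezh2.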
